A study of Mus musculus with 2 samples.

Results

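Expression of 32 genes of sugar breakdown and of the response to low oxygen was followed in single cells from the vitreous of mouse eyes. The genes were chosen by name, but with earlier results of these data known. They are 32 of the 31053 genes in the count matrices: 21 transporters, enzymes and regulators of glycolysis, and 11 genes of the hypoxia response. The symbol Aldoa stands on 2 matrix rows, which were summed, so the 32 genes fill 33 rows. The cells came from C57BL/6 mice. All mice had received zymosan, a yeast cell wall preparation, into the eye, and were treated either with what the labels call NRS or with antisera to the chemokine receptor CXCR2 (aCXCR2), so the zymosan injection is shared by both groups. Cells were collected from the vitreous and by rinsing the retinas, then taken with magnetic beads against the neutrophil surface protein Ly6G, and 1 droplet-based library of transcript 3′ ends was made per treatment. How many animals gave cells, their age and the time after injection are not stated by the labels. With 1 library per treatment no difference between treatments could be tested. All intervals below are exact and cover counting error only: Poisson for a level, conditional on the summed counts for a ratio, and Clopper-Pearson for a share. A range given after a value is its 95% interval.

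Glycolysis turns glucose into pyruvate in the cytosol, and lactate dehydrogenase then regenerates the NAD+ that the pathway needs. Neutrophils rely on this route for most of their ATP, and rods are known for making lactate even when oxygen is present. When oxygen is low, the prolyl hydroxylases stop marking HIF-1α for destruction, and HIF-1 switches on glycolytic genes, genes of mitochondrial clearance and its own hydroxylases.

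The NRS library held 7314 barcodes, of which 5655 were kept, with a median of 4759 unique transcript molecules (UMIs). The aCXCR2 library held 5551, of which 4826 were kept, with a median of 10383.5. The libraries shared 53 barcode sequences. Clusters were built without the 32 genes and assigned to classes from marker genes, giving 2353 and 2480 neutrophil-like, 469 and 1736 macrophage-scoring, and 908 and 280 photoreceptor-like cells in the NRS and aCXCR2 libraries, so that many barcodes of a Ly6G selection carried no neutrophil profile. Summed neutrophil markers reached 50957 and 169141 CPM in the neutrophil-like class, and summed photoreceptor markers 46853 and 34105 CPM in the photoreceptor-like class. Levels are given in CPM (counts per 1000000 UMIs of the class), not divided by gene length because transcript ends were read. Median UMIs per cell in the neutrophil-like class were 4446 and 7729, and the granule genes S100a8 and S100a9 alone took 4.604% and 15.9% of its UMIs.

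HIF binds DNA at short motifs, so the bases before the transcription starts of the genes were searched for ACGTG and GCGTG on both strands, which read CACGT and CACGC when they lie on the other strand. CACGTG reads as ACGTG on either strand and was counted on both. RefSeq windows on GRCm38.p6 were listed for 29 of the 32 genes, 20 of glycolysis and 9 of the hypoxia response. In the 250 bases before the first listed start, 15 of 20 glycolysis genes (75%) and 8 of 9 hypoxia genes (88.9%) held at least 1 match. Among all 27025 genes with a window, which were not matched for base content or expression, the share was 38.6%. At least 2 matches stood in 45%, 77.8% and 16.8%. A match is a string of letters, not a bound site, and no binding was measured here. The windows of 5 genes that the comparison of neutrophil clusters turns on are shown 5′ to 3′ on the gene's strand with the matches in capitals, since Bnip3, Ero1l and Hilpda were highest in a cluster where Hif1a and Pfkfb4 lay below their mean over clusters. Bnip3 (chr7:138909507-138909756, minus strand) held 5 matches, between 117 and 35 bases before its start. Ero1l, listed by RefSeq as Ero1a (chr14:45318573-45318822, minus strand), held 3, between 128 and 63 bases. Hilpda has 2 listed starts. The window of the first held none, and that of the second (chr6:29272376-29272625, plus strand) held 3, the nearest 8 bases before the start. Hif1a (chr12:73907617-73907866, plus strand) held 3, and Pfkfb4 (chr9:108991652-108991901, plus strand) held 1, at 117 bases.
Bnip3: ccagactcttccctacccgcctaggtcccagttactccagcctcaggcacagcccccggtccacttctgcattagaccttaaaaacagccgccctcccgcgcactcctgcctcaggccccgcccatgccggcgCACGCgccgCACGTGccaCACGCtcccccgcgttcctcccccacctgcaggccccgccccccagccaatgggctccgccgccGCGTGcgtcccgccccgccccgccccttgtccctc
Ero1l: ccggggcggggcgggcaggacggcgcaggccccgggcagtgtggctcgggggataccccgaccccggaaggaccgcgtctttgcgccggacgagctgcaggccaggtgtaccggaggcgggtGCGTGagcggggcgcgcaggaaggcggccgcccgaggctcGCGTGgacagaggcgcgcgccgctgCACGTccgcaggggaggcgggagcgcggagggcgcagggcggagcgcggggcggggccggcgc
Hilpda: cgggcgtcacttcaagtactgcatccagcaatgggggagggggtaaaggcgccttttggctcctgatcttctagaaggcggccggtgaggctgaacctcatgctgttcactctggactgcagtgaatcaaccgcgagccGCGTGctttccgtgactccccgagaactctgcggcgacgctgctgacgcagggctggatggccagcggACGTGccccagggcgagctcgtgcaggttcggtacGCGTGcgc
Hif1a: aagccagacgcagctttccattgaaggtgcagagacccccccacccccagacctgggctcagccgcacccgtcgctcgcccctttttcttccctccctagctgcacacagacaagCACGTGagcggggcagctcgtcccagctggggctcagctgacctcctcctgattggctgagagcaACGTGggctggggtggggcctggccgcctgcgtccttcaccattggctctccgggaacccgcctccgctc
Pfkfb4: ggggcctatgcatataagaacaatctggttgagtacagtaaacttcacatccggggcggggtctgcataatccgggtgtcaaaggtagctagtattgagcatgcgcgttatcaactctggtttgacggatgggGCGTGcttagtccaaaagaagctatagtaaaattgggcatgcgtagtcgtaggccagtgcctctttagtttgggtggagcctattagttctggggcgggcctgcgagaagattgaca

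Summed over the 21 glycolysis genes, neutrophil-like cells stood at 13790.5 (13723 to 13859) CPM in the NRS library and 11614 (11570.0 to 11659) in the aCXCR2 library. Macrophage-scoring cells stood at 10499.8 (10448 to 10552) and 13121 (13091 to 13152), and photoreceptor-like cells at 12923 (12851 to 12995) and 11027 (10873 to 11183). The order of the classes therefore differed between the libraries, with neutrophil-like cells highest under NRS and macrophage-scoring cells highest under aCXCR2. The 11 hypoxia genes summed to 2998 (2966 to 3030.0) and 2085 (2067 to 2104) CPM in neutrophil-like cells, 1536 (1517 to 1556) and 1838 (1827 to 1849.7) in macrophage-scoring cells, and 1598 (1573 to 1624) and 1475 (1419 to 1533) in photoreceptor-like cells. Neutrophil-like cells had the highest hypoxia sum in both libraries, although with the libraries clustered separately the log2 ratio of macrophage-scoring over neutrophil-like cells under aCXCR2 turned from -0.18 to 0.11. With edgeR's TMM factors in place of total UMIs, the log2 ratio of macrophage-scoring over neutrophil-like cells for the glycolysis sum was -0.13 under NRS and -0.15 under aCXCR2, against -0.39 and 0.18 with total UMIs, so the higher aCXCR2 glycolysis sum in macrophage-scoring cells was not kept under that scaling. Nor was it kept without the Ccr2-led cluster 2 (-0.013) or with S100a8 and S100a9 left out of the totals (-0.070).

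**Figure D1:**
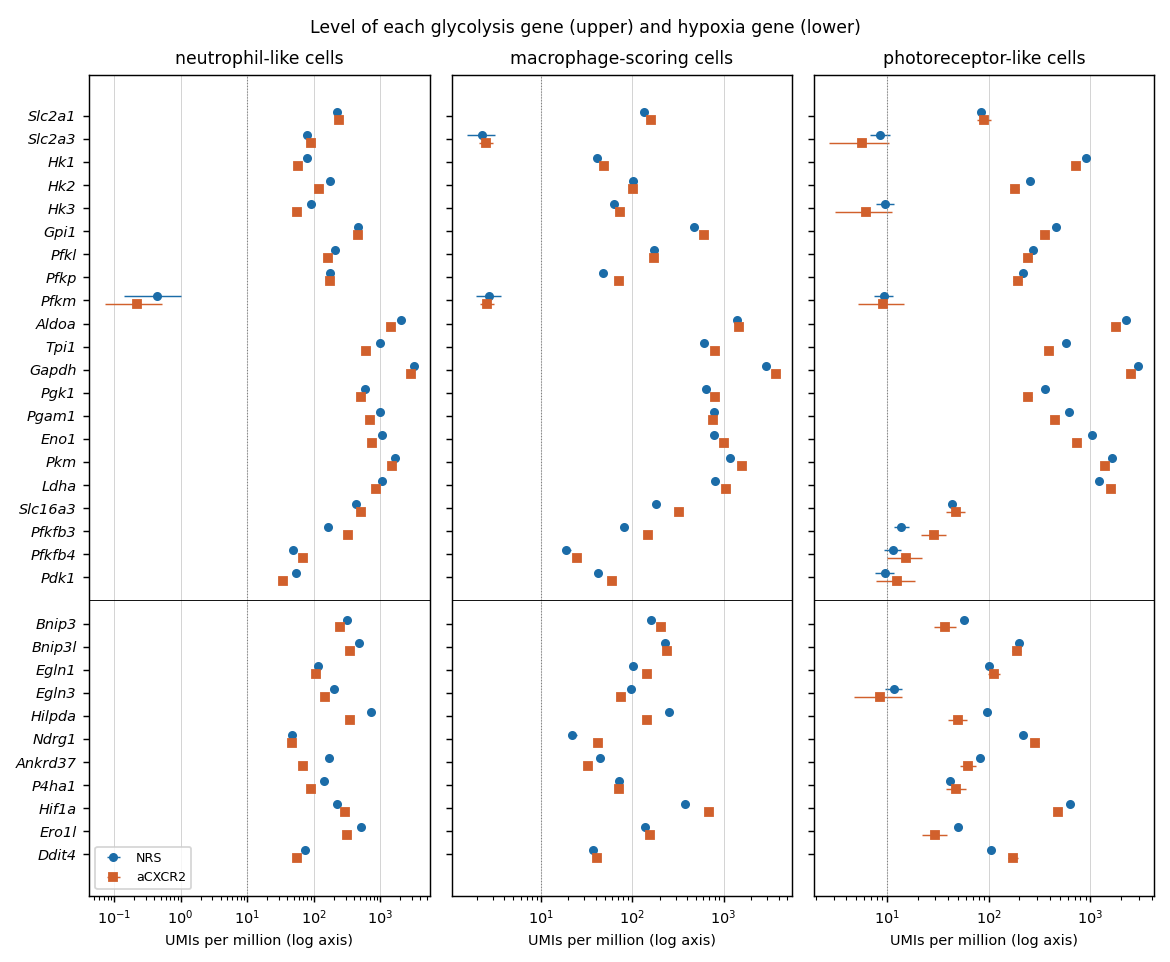
Level of each of the 32 genes in CPM on a log axis, in neutrophil-like, macrophage-scoring and photoreceptor-like cells, with 1 point per library (circles NRS, squares aCXCR2), bars for the 95% counting interval and a dotted line at 10 CPM. Gapdh, at 3188 and 2929 CPM in neutrophil-like cells, is among the highest in each class, and Pfkm lies under 10 CPM in each class and library.

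Glucose enters through the facilitative transporters Slc2a1 and Slc2a3. Slc2a1 was read at 221 and 237 CPM in neutrophil-like cells (NRS and aCXCR2, as in all pairs below), 135 and 159 in macrophage-scoring cells and 85.0 and 90.3 in photoreceptor-like cells. Slc2a3, the high-affinity form, stood at 80.3 and 92.2 in neutrophil-like cells and at 2.25 and 2.53 in macrophage-scoring cells, 35.7-fold and 36.4-fold lower. In photoreceptor-like cells it was at 8.58 and 5.68, under 10 CPM. Hexokinases trap glucose as glucose 6-phosphate. Hk1, the form bound to the mitochondrial surface in many resting tissues, was at 79.1 and 57.1 in neutrophil-like and 41.4 and 49.2 in macrophage-scoring cells but at 903 and 724 in photoreceptor-like cells. Hk2, the inducible form, was at 176 and 119.7 in neutrophil-like, 103 and 102 in macrophage-scoring and 254 and 179.9 in photoreceptor-like cells. Hk3, a form of myeloid cells, was at 91.1 and 56.5 in neutrophil-like and 62.5 and 72.9 in macrophage-scoring cells, and under 10 CPM in photoreceptor-like cells, at 9.63 and 6.24.

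Gpi1, which interconverts glucose and fructose phosphates, was level across classes under NRS, at 469, 476 and 459 CPM, and spread to 464, 612 and 355 under aCXCR2. Phosphofructokinase commits the sugar to glycolysis. Its liver-type subunit Pfkl was at 205 and 163 in neutrophil-like, 175 and 174 in macrophage-scoring and 272 and 243 in photoreceptor-like cells. The platelet-type subunit Pfkp was at 178 and 177 in neutrophil-like and 219.6 and 192 in photoreceptor-like cells, and lower, at 48.1 and 71.4, in macrophage-scoring cells. The muscle-type subunit Pfkm was under 10 CPM in each class, with 5 UMIs in each library over all neutrophil-like cells. Pfkfb3 and Pfkfb4 set the level of fructose 2,6-bisphosphate, the main activator of phosphofructokinase. Pfkfb3 was at 163 and 323 in neutrophil-like, 81.3 and 149 in macrophage-scoring and 13.9 and 28.9 in photoreceptor-like cells, higher under aCXCR2 in each class. Pfkfb4 was at 48.2 and 68.9 in neutrophil-like, 19.1 and 24.6 in macrophage-scoring and 11.4 and 15.3 in photoreceptor-like cells.

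The steps from aldolase to lactate held several of the most abundant members, Gapdh, Aldoa and Pkm among them. Aldoa, the aldolase of muscle and most cells, was at 2040.0 and 1453 CPM in neutrophil-like, 1407 and 1478 in macrophage-scoring and 2221 and 1793 in photoreceptor-like cells. Tpi1, triose phosphate isomerase, was at 989.5 and 609 in neutrophil-like, 603 and 803 in macrophage-scoring and 577 and 393 in photoreceptor-like cells. Gapdh, which makes the pathway's NADH, was at 3188 and 2929 in neutrophil-like, 2930.2 and 3783 in macrophage-scoring and 2972 and 2508 in photoreceptor-like cells, the highest member in each class and library. The kinase Pgk1, which makes the first ATP of the pathway, was at 582 and 511 in neutrophil-like, 649 and 808 in macrophage-scoring and 362 and 243 in photoreceptor-like cells. Pgam1, a phosphoglycerate mutase, was at 978 and 693 in neutrophil-like, 785 and 769 in macrophage-scoring and 612 and 447 in photoreceptor-like cells. The enolase Eno1 was at 1071 and 755 in neutrophil-like, 776 and 1015 in macrophage-scoring and 1029 and 737 in photoreceptor-like cells. Aldoa, Gapdh and Eno1 have near-identical copies in the genome, and how reads were divided among them is not stated by the labels. The pyruvate kinase Pkm was at 1681 and 1501 in neutrophil-like, 1174 and 1608 in macrophage-scoring and 1646 and 1408 in photoreceptor-like cells. At the branch to lactate, Ldha was at 1058 and 862 in neutrophil-like, 805 and 1057 in macrophage-scoring and 1205 and 1587 in photoreceptor-like cells. The lactate exporter Slc16a3 was at 437 and 510.5 in neutrophil-like, 183 and 322 in macrophage-scoring and 43.8 and 47.7 in photoreceptor-like cells. Pdk1, which shuts pyruvate out of the mitochondrial citric acid cycle, was scarce, at 53.8 and 34.0 in neutrophil-like, 42.0 and 60.2 in macrophage-scoring and 9.52 and 12.5 in photoreceptor-like cells.

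Of the hypoxia genes, Hif1a itself ran against most of the others. In CPM it was lowest in neutrophil-like cells, at 222 and 295, and stood at 382 and 685 in macrophage-scoring and 631 and 477 in photoreceptor-like cells. Its prolyl hydroxylases differed from each other. Egln1 was nearly level across classes, at 116 and 109 in neutrophil-like, 102 and 145 in macrophage-scoring and 102 and 113 in photoreceptor-like cells. Egln3, itself a HIF target, was at 198 and 146 in neutrophil-like, 97.1 and 75.8 in macrophage-scoring and 11.6 and 8.51 in photoreceptor-like cells. Hilpda, a lipid droplet protein that inhibits the triglyceride lipase ATGL, showed 721 (705 to 737) and 351 (343 to 359) CPM in neutrophil-like cells. It was at 252 and 147 in macrophage-scoring and 97.2 and 49.95 in photoreceptor-like cells. Ero1l, which oxidises protein disulfide isomerase in the endoplasmic reticulum, was at 513 and 319.9 in neutrophil-like, 137 and 156 in macrophage-scoring and 50.3 and 29.5 in photoreceptor-like cells. The mitophagy receptors Bnip3 and Bnip3l were at 314 and 250.1 and at 480.4 and 353 in neutrophil-like cells. In macrophage-scoring cells they were at 162 and 205 and at 228 and 238, and in photoreceptor-like cells at 57.8 and 37.5 and at 201 and 188. P4ha1, a collagen prolyl hydroxylase subunit, was at 144 and 90.5 in neutrophil-like, 71.7 and 71.3 in macrophage-scoring and 41.8 and 48.2 in photoreceptor-like cells. Ankrd37, an ankyrin repeat gene, was at 169 and 69.8 in neutrophil-like, 44.9 and 33.1 in macrophage-scoring and 82.3 and 63.0 in photoreceptor-like cells. Ndrg1, a stress-inducible gene, and Ddit4, an inhibitor of mTORC1 signalling, had their highest CPM in photoreceptor-like cells in both libraries. Ndrg1 was at 46.7 and 46.4 in neutrophil-like, 22.2 and 42.0 in macrophage-scoring and 218 and 286 in photoreceptor-like cells. Ddit4 was at 75.04 and 55.3 in neutrophil-like, 37.1 and 41.0 in macrophage-scoring and 106 and 174 in photoreceptor-like cells. Relative to the middle of all genes, as TMM factors scale them, photoreceptor-like cells stand lower against neutrophil-like cells by 0.76 (NRS) and 1.79 (aCXCR2) on the log2 scale. Hk1 and Ndrg1 stayed higher in photoreceptor-like cells under that scaling in both libraries, while Ddit4 turned lower in both and Hif1a turned lower under aCXCR2.

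Between macrophage-scoring and neutrophil-like cells the hypoxia genes had lower median ratios than the glycolysis genes. Under NRS, 9 of 11 hypoxia genes were at least 1.5-fold lower in macrophage-scoring cells and 1, Hif1a, at least 1.5-fold higher, where 35.8% and 24.6% of all genes tested were. The median log2 ratio was -1.03 for hypoxia genes, -0.54 for glycolysis genes and -0.24 for all genes. Under aCXCR2, 4 hypoxia genes were lower (all genes 16.8%), and 1, again Hif1a, was higher (45%). The medians there were -0.43, 0.098 and 0.45, and TMM factors put the glycolysis median at -0.23. With TMM factors 9 and 8 hypoxia genes were lower in the libraries (25.5% and 24.8% of all genes). Hilpda had log2 ratios of -1.52 (-1.57 to -1.46) and -1.26 (-1.30 to -1.21), and Ero1l of -1.90 (-1.98 to -1.83) and -1.04 (-1.08 to -0.99), in the NRS and aCXCR2 libraries. Hif1a had 0.78 (0.71 to 0.85) and 1.22 (1.18 to 1.25). Of 20 glycolysis genes measured, 9 were lower under NRS and 5 under aCXCR2. The transporters Slc2a3 and Slc16a3, the subunit Pfkp and the regulators Pfkfb3 and Pfkfb4 were lower in both, while Pgk1 had 0.16 (0.11 to 0.20) and 0.66 (0.63 to 0.69). Against neutrophil-like cells, photoreceptor-like cells were at least 1.5-fold lower in 10 (NRS) and 10 (aCXCR2) glycolysis genes and in 7 and 6 hypoxia genes, where 22.4% and 17.7% of all genes were. At least 1.5-fold higher were 1 and 3 glycolysis and 2 and 3 hypoxia genes, against 55.7% and 71.1% of all genes. Hk1 was 11.4-fold and 12.7-fold higher, and Ndrg1 4.66-fold and 6.15-fold higher.

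In neutrophil-like cells Hilpda and Ankrd37 were lower and Pfkfb3 higher in the aCXCR2 library than in the NRS library, with total UMIs and with TMM factors alike, while for most other members the sign depended on the scaling. Pfkfb3 went from 163 (155 to 170.1) CPM under NRS to 323 (316 to 331) under aCXCR2, a log2 ratio of 0.99 (0.92 to 1.07). It was the 1 glycolysis gene of 20 measured that was at least 1.5-fold higher, where 4.16% of all genes were. At least 1.5-fold lower were 3 glycolysis genes, Hk3 (-0.69, -0.81 to -0.57), Tpi1 (-0.70, -0.74 to -0.67) and Pdk1 (-0.66, -0.82 to -0.51), and 4 hypoxia genes, with 46.5% of all genes lower. These hypoxia genes were Ankrd37 (-1.27, -1.37 to -1.17), Hilpda (-1.04, -1.08 to -0.99), Ero1l (-0.68, -0.73 to -0.63) and P4ha1 (-0.67, -0.76 to -0.57). Hif1a was higher, at 0.41 (0.34 to 0.48), as were Pfkfb4 (0.51, 0.37 to 0.66), Slc16a3 (0.22, 0.18 to 0.27) and Slc2a3 (0.20, 0.087 to 0.31). The median log2 ratio was -0.24 over glycolysis genes, -0.44 over hypoxia genes and -0.54 over all genes, so both lists lay above the middle gene. TMM factors moved the median of all genes to 0.094 and the list medians to 0.40 and 0.20. With them 7 glycolysis genes were higher and 0 lower, and 2 hypoxia genes higher and 1 lower (18.1% and 8.83% of all genes). Hilpda (-0.40) and Ankrd37 (-0.63) kept their sign, Ero1l, P4ha1, Hk3, Tpi1 and Pdk1 came within 0.1 of 0, and the other measured members turned or stayed above 0. With S100a8 and S100a9 left out of the total, the list medians were -0.060 and -0.26, with 0 glycolysis and 2 hypoxia genes at least 1.5-fold lower. The share of all genes lower with that total is not given. In the class 11 and 3 of 13 photoreceptor markers reached 10 CPM (NRS and aCXCR2), and 0 and 1 were at 0. Photoreceptor markers summed to 1102 and 133 CPM and the 9 heat shock genes to 1891 and 585, and their part in the ratios was not tested.

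The neutrophil-like class was made of different clusters in the libraries, so it was also compared cluster by cluster. Cluster 3 (Siglecf among its leading genes) held 909 NRS and 73 aCXCR2 cells and cluster 5 (led by Hspa1a, Gdf15, Hcar2 and Hilpda) 592 and 156, whereas cluster 0 (Car4, Ly6i) held 122 and 1152 and cluster 7 (Retnlg, Ngp) 17 and 597. Within clusters the ratio of Hilpda was -0.030 (-0.30 to 0.25) in cluster 0, -0.27 (-0.50 to -0.056) in cluster 3, 0.17 (0.081 to 0.26) in cluster 4, -0.53 (-0.62 to -0.44) in cluster 5 and -1.03 (-1.65 to -0.46) in cluster 9. The lower class level of Hilpda was thus not seen within clusters 0 and 4. The median of all genes was -0.33, -0.082, -0.54, -0.060 and -0.16 in clusters 0, 3, 4, 5 and 9, so relative to the middle gene Hilpda was higher in clusters 0 and 4. Ankrd37 was lower in each of these 5 clusters, at -0.94 (-1.24 to -0.63), -0.80 (-1.21 to -0.41), -1.08 (-1.34 to -0.81), -0.75 (-1.05 to -0.47) and -1.55 (-2.39 to -0.82). Pfkfb3 was higher in cluster 0 (0.83, 0.54 to 1.14), 3 (0.69, 0.30 to 1.06), 4 (0.42, 0.30 to 0.53) and 5 (0.91, 0.66 to 1.16), and not in cluster 9 (-0.20, -0.61 to 0.20). Hif1a, higher in the class, differed little within clusters, from -0.16 (-0.52 to 0.18) in cluster 3 to 0.16 (-0.10 to 0.41) in cluster 9. Without cluster 5, 1 hypoxia gene in place of 4 and 1 glycolysis gene in place of 3 were at least 1.5-fold lower in the class. The share of all genes lower without cluster 5 is not given, so this change is no result about the members.

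**Figure D2:**
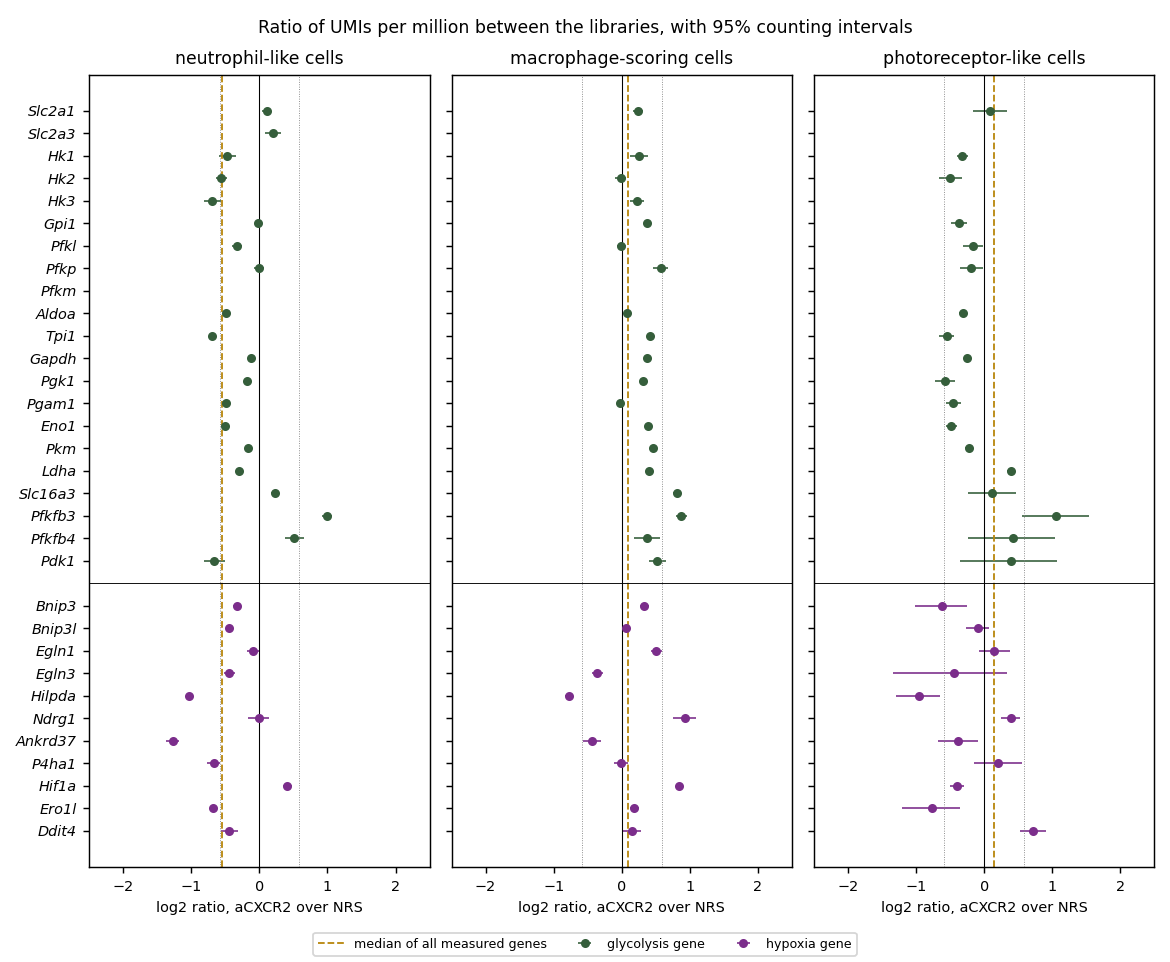
Log2 ratio of CPM, aCXCR2 over NRS, for each member measured in each class, with 95% counting intervals. The dashed line is the median of all measured genes (-0.54, 0.085 and 0.15 from left to right) and dotted lines mark 1.5-fold. With UMIs summed over clusters, Pfkfb3 lies to the right in each class and Hilpda to the left in each class.

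In macrophage-scoring cells, with UMIs summed over clusters, most glycolysis genes were moderately higher in the aCXCR2 library. Of 19 measured, 2 were at least 1.5-fold higher, Pfkfb3 at 0.88 (0.79 to 0.96) and Slc16a3 at 0.81 (0.76 to 0.87), and 0 lower, against 7.93% and 5.7% of all genes. The median was 0.37, that of all genes 0.085, and without the Ccr2-led cluster 2 the glycolysis median was 0.18. Hif1a stood at 382 (372 to 392) CPM under NRS and 685 (678 to 692) under aCXCR2 (0.84, 0.80 to 0.88) and Ndrg1 at 22.2 and 42.0 (0.92, 0.76 to 1.09). Hilpda, in contrast, was lower in the class sums, at -0.78 (-0.83 to -0.72), and so were Ankrd37 (-0.44, -0.57 to -0.31) and Egln3 (-0.36, -0.44 to -0.27). Within clusters the direction differed. The glycolysis sum was higher under aCXCR2 in cluster 2 (10269 and 14571 CPM) and cluster 11 (5844 and 9588). It was lower in cluster 8 (18085 and 15480) and cluster 14 (8263 and 7677). Hilpda was higher under aCXCR2 in cluster 2 (57.9 CPM under NRS and 87.1 under aCXCR2) and cluster 11 (39.0 and 118). It was lower in cluster 8 (744 and 386) and cluster 14 (96.99 and 74.7). Egln3 had the same direction as Hilpda in each of these clusters. Cluster 8 made up 172 of 469 NRS and 352 of 1736 aCXCR2 cells of the class. The hypoxia median was 0.14, and -0.074 with a stricter filter on cells. In these cells 6 and 9 of 11 neutrophil markers reached 10 CPM (NRS and aCXCR2), and none was at 0. Neutrophil markers summed to 1665 and 3830.1 CPM, and their part in the ratios was not tested.

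Among neutrophil-like clusters the glycolysis and hypoxia sums stood in the same order in each library. Cluster 5 was highest, with glycolysis at 18458 (18290.5 to 18627) and 23271 (22988 to 23556) CPM and hypoxia at 5396 (5306 to 5488) and 5235 (5101 to 5371). Cluster 4, led by Ccl4, Cxcl2 and Prok2, followed with 15043 (14845 to 15243) and 16216 (16086 to 16346) for glycolysis, and 3873 (3772 to 3975) and 4150.3 (4085 to 4217) for hypoxia. Lowest were cluster 9, which carries Cxcr2 and Il1r2, with 8936 and 8743 for glycolysis and 1552 and 1269 for hypoxia, and cluster 7, given for aCXCR2 only, with 7484 (7405 to 7565) and 1013 (984 to 1043). The same contrast was seen cell by cell. The median cell of cluster 5 spent 0.457% (quartiles 0.267% and 0.724%) of its UMIs on hypoxia genes under NRS and 0.485% (quartiles 0.257% and 0.750%) under aCXCR2, and the median cell of cluster 7 0.0909% (quartiles 0.0586% and 0.131%). Cluster 5 was singled out after its Hilpda level was seen, its neutrophil marker score of 1.16 lay close to the minimum of 1, and its counts are a description. The 9 heat shock genes summed to 4441 and 1361 CPM in it and to between 758 and 1315 (NRS) and 392 and 897 (aCXCR2) in the other neutrophil-like clusters of at least 50 cells. Their part in the difference was not tested. Cluster levels here and below are relative to total UMIs, which include S100a8 and S100a9. With both libraries together, S100a8 and S100a9 stood at 131934 and 146676 CPM in cluster 7 and at 56653 and 57167 in cluster 9. In cluster 4 they stood at 67975 and 72212, and in cluster 5 at 12466 and 7264. Cluster sums are not given without them, so the order of the clusters holds for total UMIs only.

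Individual genes showed where cluster 5 stood apart. Hilpda was at 1741 CPM in it under NRS and 1205 under aCXCR2, against 985 and 1107 in cluster 4, 151 and 73.8 in cluster 9 and 26.3 in cluster 7. Ero1l was at 1004 and 1084 in cluster 5, 761 and 768 in cluster 4, 138 and 105 in cluster 9 and 83.7 in cluster 7. Bnip3 was at 601 and 820.5 in cluster 5 and at 90.1 in cluster 7. Compared with the other neutrophil-like cells, 7 of 11 hypoxia genes were at least 1.5-fold higher in cluster 5 under NRS and 10 under aCXCR2. These counts include Hilpda, by whose level the cluster was picked. The shares of all genes were 11.7% and 40.1%. Of 20 glycolysis genes 8 and 13 were. The median log2 ratio was 0.87 and 1.27 for hypoxia genes, 0.49 and 1.10 for glycolysis genes, and -0.18 and 0.39 for all genes. Egln3 had 0.76 (0.63 to 0.89) and 1.26 (1.10 to 1.42), Bnip3l had 1.14 (1.06 to 1.21) and 1.36 (1.26 to 1.46), and P4ha1 had 1.07 (0.92 to 1.22) and 1.14 (0.93 to 1.35). Tpi1 had log2 ratios of 1.07 (1.02 to 1.13) and 1.73 (1.67 to 1.80), and Hk3 of 1.27 (1.09 to 1.45) and 0.90 (0.61 to 1.18). Cluster 5 was the highest neutrophil-like cluster for 12 of the 20 glycolysis genes in each library, and for 8 (NRS) and 9 (aCXCR2) of the 11 hypoxia genes. Hilpda is again among these hypoxia genes, and it entered the hypoxia medians. The share of all genes that were highest in cluster 5 is not given, so these counts of highest genes are no result about the members.

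Some members ran the other way. Pfkfb4 was at 17.2 and 9.92 CPM in cluster 5 and at 143 and 97.6 in cluster 9, log2 ratios of -1.73 (-2.22 to -1.28) and -2.86 (-3.86 to -2.02) for cluster 5 over the other cells. Slc16a3 was highest in cluster 9, at 972 and 1266, and at 303 and 326 in cluster 5. Slc2a3 was likewise highest in cluster 9, at 181 and 198, though under aCXCR2 its interval overlapped that of cluster 7 (145), and it was at 65.4 and 70.3 in cluster 5. These transporters and most enzymes therefore did not share their highest cluster. Hif1a was at 168 and 154 in cluster 5 and at 390.5, 435 and, in cluster 7, 385. Its lowest levels were those of cluster 3, 154 and 138, so the transcript of the factor did not follow the order of its targets. Under NRS 3 glycolysis genes, Slc16a3, Pfkfb3 and Pfkfb4, and 0 hypoxia genes were at least 1.5-fold lower in cluster 5 (all genes 26.5%), and under aCXCR2 the same 3 and Hif1a were (16.7%). Pfkfb3 peaked in cluster 4, at 526 and 702, more than the 116 and 217 of cluster 5. Hk2 in clusters 4 (312 and 255) and 5 (276 and 281) did not separate beyond the counting intervals.

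**Figure D3:**
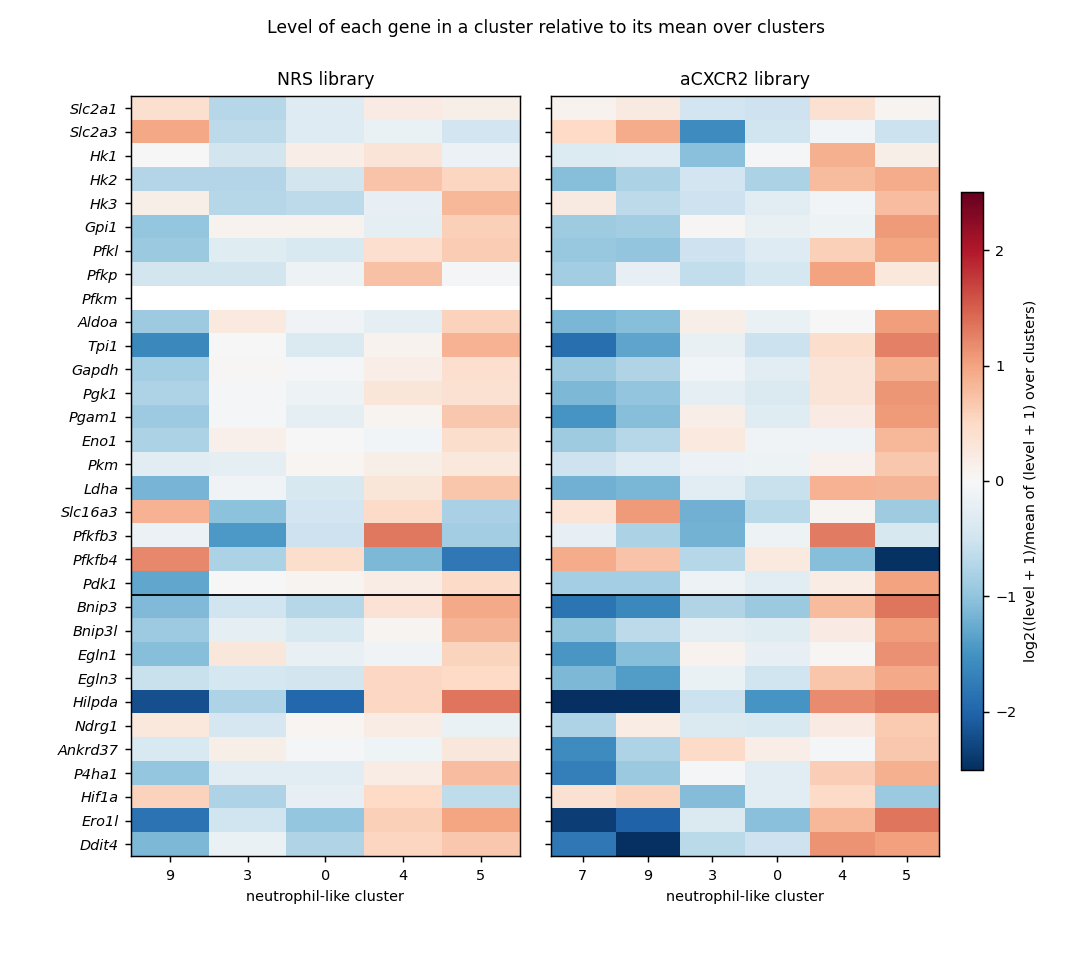
Level of each member in each neutrophil-like cluster of at least 50 cells, as log2 of level + 1 CPM over its mean across clusters (red higher, blue lower), NRS on the left and aCXCR2 on the right. Cluster 5 is red for most enzymes and hypoxia genes and blue for Slc2a3, Slc16a3, Pfkfb3, Pfkfb4 and Hif1a. Pfkm is blank, at under 10 CPM throughout.

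After each cell was thinned to 1000 UMIs, 31.7% (29.8 to 33.6) of neutrophil-like cells held a Hilpda UMI under NRS and 18.1% (16.6 to 19.7) under aCXCR2. In photoreceptor-like cells the shares were 9.41% (7.48 to 11.6) and 6.67% (3.78 to 10.8). Unthinned, the shares were 53.7% and 39.4% in neutrophil-like and 35.7% and 21.8% in photoreceptor-like cells. Within clusters the thinned share ran from 2.35% in cluster 7 to 63.0% (NRS) and 61.3% (aCXCR2) in cluster 5, with 39.5% and 48.1% in cluster 4. Unthinned, cluster 7 had 11.7%, cluster 5 86.8% and 87.2%, and cluster 4 60.4% and 74.8%. A Pfkfb3 UMI was found in 13.5% (12.1 to 14.96) and 22.5% (20.9 to 24.2) of neutrophil-like cells and in 1.24% (0.595 to 2.26) and 2.22% (0.725 to 5.11) of photoreceptor-like cells. Unthinned, these were 35.9% and 65.1%, and 8.81% and 11.4%. Thinning left out 41 and 21 neutrophil-like cells with fewer than 1000 UMIs, and 100 and 55 photoreceptor-like cells.

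Among macrophage-scoring clusters, cluster 8, led by Mmp12, Arg1 and Serpinb2, had the highest sums: 18085 (17954 to 18218) and 15479.6 (15402 to 15557) CPM for glycolysis and 3095 (3041 to 3150.1) and 2622 (2589.8 to 2654) for hypoxia. The Ccr2-led cluster 2 stood at 10269 and 14571 for glycolysis and 1036 and 1803 for hypoxia. Cluster 11, led by Ccl8 and Mrc1, stood at 5844 and 9588, and 851 and 1605. Cluster 14, led by Spp1 and Trem2, stood at 8263 and 7677, and 1031 and 937, the lowest of the class under aCXCR2. Under NRS cluster 8 exceeded the rest of its class at least 1.5-fold in 17 of 19 glycolysis and 9 of 11 hypoxia genes (all genes 13.3%), and under aCXCR2 in 3 and 8 (9.51%). Egln3 was at 297 and 163 CPM in it and at 17.5 and 45.4 in cluster 11, with log2 ratios over the rest of the class of 3.54 (3.35 to 3.73) and 1.54 (1.44 to 1.63). Hilpda was at 744 and 386 in cluster 8 and at 39.0 and 118 in cluster 11. Slc2a1 and Ddit4 followed the same order, at 352 and 339.8 against 36.9 and 91.7, and at 100.2 and 112 against 8.61 and 33.0. Hif1a did not follow that order in both libraries, with 339 in cluster 14 and 472 in cluster 8 as the lowest and highest under NRS, and 328 in cluster 14 and 730.2 in cluster 2 under aCXCR2, where cluster 8 stood at 678.

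The libraries differed in opposite ways within these clusters. In cluster 11 (102 NRS and 317 aCXCR2 cells), 12 of 19 glycolysis and 8 of 11 hypoxia genes were at least 1.5-fold higher under aCXCR2, where 6.66% of all genes were. The medians there were 0.72 and 1.04 against -0.019 for all genes. Ddit4 (1.94, 1.38 to 2.55), Hilpda (1.60, 1.33 to 1.87), Slc16a3 (1.45, 1.26 to 1.65) and Pgk1 (1.10, 0.99 to 1.20) were among them. In cluster 2 (56 and 978 cells), 5 and 8 were (9.09%). Cluster 8 (172 and 352 cells) ran the other way for Hilpda (-0.95, -1.02 to -0.88), Egln3 (-0.86, -0.97 to -0.75) and Pgk1 (-0.45, -0.50 to -0.40), while Pfkfb3 (0.95, 0.83 to 1.08) and Hif1a (0.52, 0.45 to 0.60) were higher under aCXCR2 there too. In cluster 14 (139 and 89 cells), 0 of 19 glycolysis genes were at least 1.5-fold higher under aCXCR2 (2.61% of all genes). Summed neutrophil markers in cluster 11 were 1153 and 2791 CPM and in cluster 2 668 and 4394, and their part in the ratios was not tested.

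Photoreceptor-like cells differed from the leukocytes in which form of an enzyme they carried. Hk1 made up 77.4% and 79.6% of hexokinase UMIs in them, 22.8% and 24.5% in neutrophil-like and 19.97% and 21.9% in macrophage-scoring cells. Hk3 made up 26.3% and 24.2%, and 30.2% and 32.5% in the leukocyte classes and under 1% in photoreceptor-like cells. Thinned to 1000 UMIs, 53.5% (49.96 to 56.9) and 50.7% (43.9 to 57.4) of photoreceptor-like cells held a Hk1 UMI, against 7.396% (6.36 to 8.54) and 6.10% (5.19 to 7.12) of neutrophil-like cells. Unthinned, the shares were 80.9% and 82.5%, and 28.4% and 33.0%. The monocarboxylate transporter Slc16a1, not among the 32, made up 65.6% and 52.0% of the UMIs of its family in photoreceptor-like cells, and 3.28% and 4.39% in neutrophil-like cells, where Slc16a3 made up 96.5% and 95.5%. Enolase and aldolase had smaller contributions of brain-type forms: Eno2 gave 13.0% and 19.3% of enolase UMIs in photoreceptor-like cells and under 1% in the leukocyte classes, and Aldoc 7.68% and 7.31% of aldolase UMIs against 1.10% and 1.34% in neutrophil-like cells. Neutrophil-like cells in turn carried Slc2a3 as 26.7% and 28.0% of the Slc2a1 and Slc2a3 pair, macrophage-scoring cells as 1.64% and 1.57%. Pfkp was 46.3% and 52.0% of phosphofructokinase UMIs in neutrophil-like and 21.3% and 28.8% in macrophage-scoring cells.

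**Figure D4:**
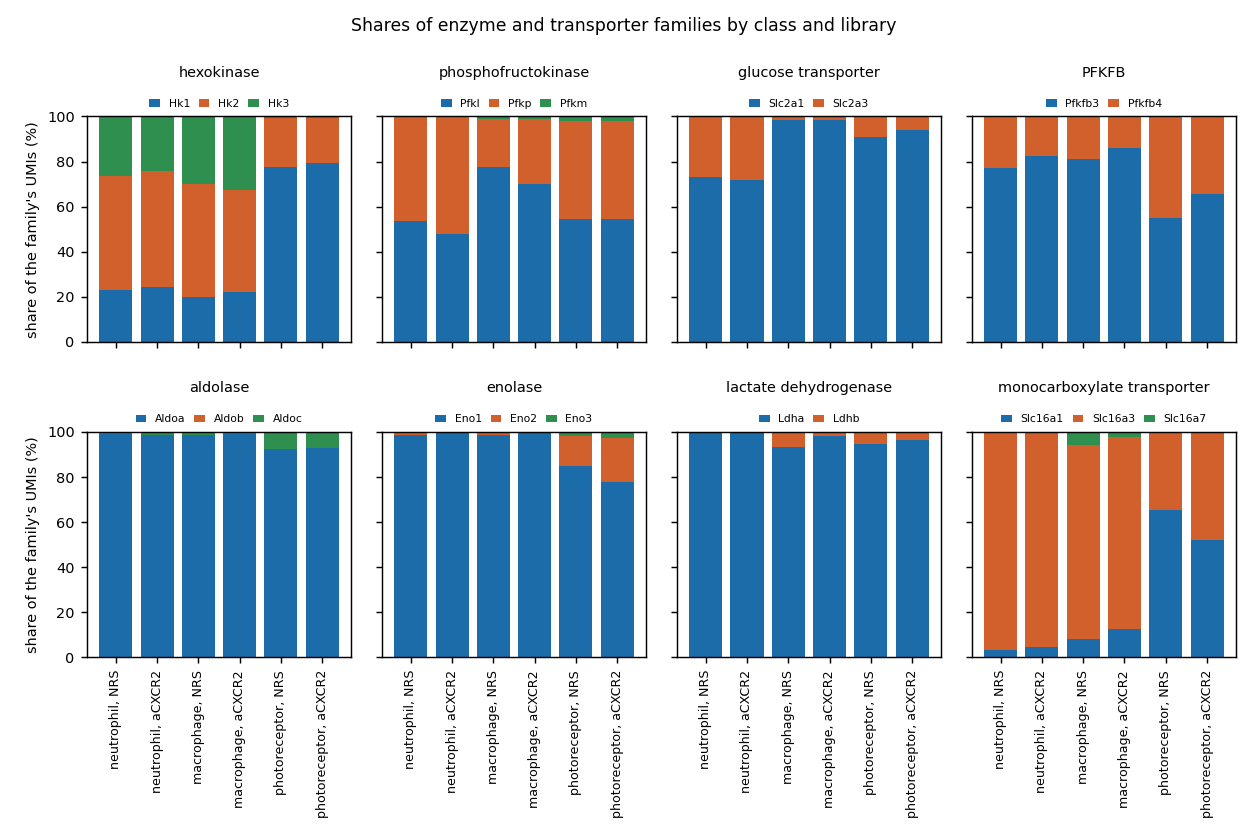
Stacked bars of the share of UMIs, in percent, that each gene takes within 8 enzyme and transporter families, by class and library. Hk1 fills 77.4% of the hexokinase bar of NRS photoreceptor-like cells and 22.8% of that of NRS neutrophil-like cells.

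With UMIs summed over its clusters, the photoreceptor-like class carried lower levels of most enzymes under aCXCR2 while all genes together lay slightly higher. The median log2 ratio was -0.24 over 18 glycolysis genes, -0.38 over 11 hypoxia genes and 0.15 over all genes. TMM factors put the medians at -0.40, -0.55 and -0.016, and with the libraries clustered separately the hypoxia median was 0.13. Ldha differed from the other abundant enzymes, with 1205 (1183 to 1228) CPM under NRS and 1587 (1528 to 1646) under aCXCR2 (0.40, 0.34 to 0.46, and 0.23 with TMM factors). At least 1.5-fold higher were 1 glycolysis gene, Pfkfb3 (1.06, 0.56 to 1.53), and 1 hypoxia gene, Ddit4 (0.72, 0.53 to 0.90), and lower were 3 hypoxia genes, Hilpda (-0.96, -1.29 to -0.64), Ero1l (-0.77, -1.21 to -0.36) and Bnip3 (-0.62, -1.02 to -0.25), with 14.3% and 4.05% of all genes. The clusters differed. In cluster 12 glycolysis summed to 13858 and 12758 CPM, in cluster 6 (Gnat1, Sag) to 13056 and 12153, and in cluster 16 (Nr1d1, Cplx3) to 9535 and 9438. Cluster 16 made up 58 of 908 NRS cells and 79 of 280 aCXCR2 cells of the class. Its photoreceptor markers summed to 23398 and 20657 CPM, lower than in cluster 6 (47598 and 44104) and cluster 12 (55853 and 43992). Median UMIs per cell were 5975.5 and 7459 in cluster 16, 5908 and 5176 in cluster 6 and 1334 and 789 in cluster 12. Cluster 16 therefore weighed more in the class sums under aCXCR2 than its share of cells shows. It had the most Ldha (1661 and 1882) and Ddit4 (322 and 297) of the 3 clusters and the least Hk1 (453 and 441). Hk1, at 903 and 724 in the class, was at 945 and 939 in cluster 6 and 677 and 894 in cluster 12. Within cluster 6 alone, Ldha had a ratio of 0.21 (0.12 to 0.29) and Ddit4 of -0.20 (-0.56 to 0.14). Here 8 and 9 of 11 neutrophil markers reached 10 CPM (NRS and aCXCR2), and none was at 0. Summed neutrophil markers were 2288 and 7179 CPM in the class, and their part in its Slc16a3, Pfkfb3 and Hilpda levels was not tested.

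Across all clusters of at least 50 cells the glycolysis and hypoxia sums ranked alike, with Spearman's rho of 0.84 over 18 clusters under NRS and 0.86 over 16 under aCXCR2. Clusters of a library share its depth and free RNA, and the value is a description. Heat shock and hypoxia sums had 0.032 and -0.032 over the same clusters, but 1 over the 5 neutrophil-like clusters under NRS and 0.94 over the 6 under aCXCR2, where both sums ranked nearly alike. Under NRS the heat shock sums of clusters 3 and 4 were 1313.8 (1283 to 1345) and 1314.6 (1256 to 1375) CPM. Their order was thus not resolved, and the value of 1 depends on it. Photoreceptor-like clusters 6 and 12 carried glycolysis sums near those of neutrophil-like clusters 0 and 3 with hypoxia sums of 1584 and 1592 against 1818 and 2205 CPM under NRS.

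**Figure D5:**
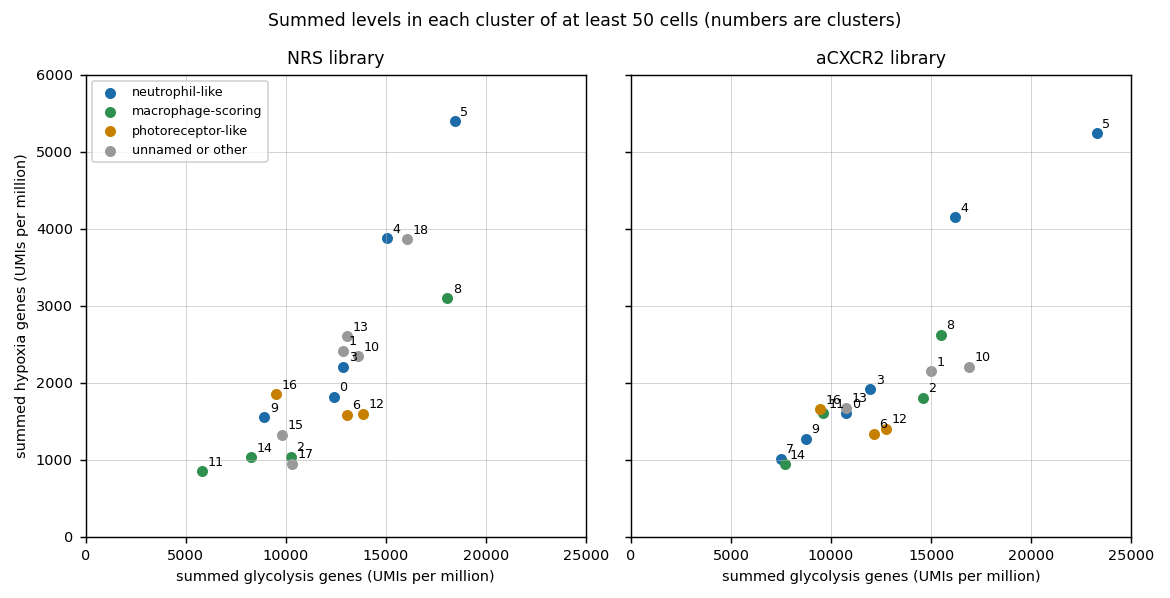
Summed glycolysis genes (horizontal) and summed hypoxia genes (vertical), in CPM, for each cluster of at least 50 cells, coloured by class and numbered, NRS left and aCXCR2 right. Cluster 5 sits at the upper right in both, at 18458 and 5396 CPM under NRS.

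Neighbouring pathways were read from lists of other genes, for aCXCR2 over NRS in neutrophil-like cells (median of all genes -0.54, and 0.094 with TMM factors). At least 1.5-fold higher and lower were 4.16% and 46.5% of all genes, so a count of lower genes near the latter share is no result about its list. Of 7 genes of the pentose phosphate branch, which supplies NADPH for the oxidative burst, 0 were at least 1.5-fold higher and 1 lower, with a median of -0.065. G6pdx (0.20) and Tkt (0.15) were at its upper end and Rpia (-0.90) and Pgls (-0.40) at its lower end. In glycogen handling, 1 of 7 was higher, the phosphorylase Pygl (0.60), and 1 lower, the branching enzyme Gbe1 (-1.02), with Pgm2 at 0.35 and Ugp2 at -0.50. Pygl was at 265 and 403 CPM. Of 6 genes that carry pyruvate into mitochondria or regulate that step, 3 were lower, near that share, among them the dehydrogenase subunits Pdhb (-1.40) and Dlat (-1.10), with Pdk3 (0.27) and Mpc1 (-0.18) at the other end. Of 5 further HIF regulators 2 were lower, Cited2 (-0.95) and the asparaginyl hydroxylase Hif1an (-0.77), with Egln2 at -0.27 and Arnt at -0.28. Of 9 further HIF targets 4 were lower, again near the share of all genes, and 0 higher. Vegfa (-1.14) and Mif (-0.87) were lowest, and Mxi1 (-0.24) and Fam162a (-0.24) highest. The other isoforms and transporters measured were Slc16a1 (0.66), Slc2a6 (0.33), Aldoc (-0.20) and Bsg (-0.71), the chaperone of lactate transporters. The glucose-responsive Txnip and Arrdc4 were at -0.34 and -0.60. All 8 measured heat shock genes were at least 1.5-fold lower, from Dnajb1 (-0.77) and Hspa8 (-1.10) to Hspa1b (-3.61) and Hspa1a (-3.96). TMM factors add 0.64 to each of these ratios, and with them 3 pentose phosphate, 3 glycogen and 2 other isoform genes were higher, 6 heat shock genes were lower, and 0 HIF regulators and 0 further HIF targets were lower, against 18.1% of all genes higher and 8.83% lower.

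The further HIF targets also followed cluster 5. In it 9 of 12 were at least 1.5-fold higher than in the other neutrophil-like cells under NRS and 10 of 10 under aCXCR2 (all genes 11.7% and 40.1%). Glycogen genes were split, with 5 of 7 higher and 1, Pygl, lower in the NRS library. Pentose phosphate genes showed 0 higher and 0 lower of 7 under NRS and 4 higher and 1 lower under aCXCR2.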

How the data were processed

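Single-cell 3′ libraries of Ly6G-selected vitreous cells were made, 1 per treatment. The deposited matrices hold UMI counts per gene and barcode, written by software version 3.0.0 per the file headers. Cell Ranger and Seurat are named per the submitters' processing notes, which list GRCh38 although the gene identifiers are mouse. Neither a mouse build nor the handling of near-identical gene copies is stated. Cells needed 500 or more UMIs, 200 or more detected genes and a mitochondrial share of up to 10%. A doublet caller (scanpy 1.11.5) marked 0 of 5655 and 4 of 4826 cells, so it has not worked and no doublets were removed. Both libraries were clustered together with leidenalg 0.10.2 and scikit-learn 1.9.0 on 2000 variable genes without the members and the pathway lists. The settings were 30 principal components, 15 neighbours and resolution 1. A cluster took a class name when its mean log2 marker level, with 100 CPM added, stood at least 1 above the 25th percentile of clusters. This threshold was set after seeing the data, and with class names rebuilt here, other names may fit. Clusters 1, 10, 13, 15, 17, 18 and 19 stayed unnamed. Of these, cluster 1 did not reach the score (0.44). The others reached it but were left unnamed as mixed, because another class, erythroid not counted, reached it too. Further rules for a name concerned cell number, leading genes, detected markers and depth. NRS neutrophil-like cells lay mostly in clusters 3, 5, 9 and 4, and aCXCR2 ones in clusters 0, 7 and 4.

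UMIs were summed per class or cluster and library and scaled to CPM, counts per 1000000 UMIs (Python 3.11.15, numpy 2.4.6, pandas 2.3.3, scipy 1.17.1, matplotlib 3.10.9, R 4.3.3). Genes with at least 10 CPM in 1 of the compared groups counted as measured, and 1.5-fold as a difference. With 1 library per group no test was run. TMM factors came from edgeR 4.0.16 and median of ratios factors from DESeq2 1.42.0, as alternatives in scaling only. Clusters entered comparisons by library with at least 50 cells. The intervals for ratios were tried on counts simulated with Poisson error only, which is the error they assume. That check therefore does not bear on variation among cells, clusters or libraries. All members are named. From each further pathway list, the genes named are the 2 with the largest and the 2 with the smallest ratio in neutrophil-like cells among those of at least 10 CPM. The members and lists were chosen with earlier results of these data known. Alternatives tried were cell filters, clustering settings, scalings, level and fold thresholds, and classes with single clusters added or left out.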

Additional observations from a re-analysis of the deposited data

How the results depend on the processing

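No paired analysis was possible because each treatment has 1 library, so no library could be left out. Values are given as the median log2 ratio aCXCR2 over NRS of a list in a class, the count of neutrophil-like members at least 1.5-fold apart, and the log2 ratio of a list's sum in macrophage-scoring over neutrophil-like cells. As reported they were medians of neutrophil-like glycolysis -0.24 and hypoxia -0.44, macrophage-scoring glycolysis 0.37 and hypoxia 0.14, photoreceptor-like glycolysis -0.24 and hypoxia -0.38, counts of 3 glycolysis lower, 1 glycolysis higher, 4 hypoxia lower, 0 hypoxia higher, and sums of glycolysis NRS -0.39, glycolysis aCXCR2 0.18, hypoxia NRS -0.96, hypoxia aCXCR2 -0.18. Over the alternatives 112 recomputed values stayed within the counting interval or within 1.5 times a count and 90 moved, and for single genes 12 stayed and 36 moved. With the libraries clustered separately they gave medians of neutrophil-like glycolysis -0.36 and hypoxia -0.65, photoreceptor-like hypoxia 0.13, counts of 5 glycolysis lower, 2 glycolysis higher, 7 hypoxia lower, and sums of glycolysis NRS -0.38, glycolysis aCXCR2 0.28, hypoxia NRS -0.89, hypoxia aCXCR2 0.11. With TMM factors they gave medians of neutrophil-like glycolysis 0.40 and hypoxia 0.20, photoreceptor-like glycolysis -0.40, counts of 0 glycolysis lower, 7 glycolysis higher, 1 hypoxia lower, 2 hypoxia higher, and sums of glycolysis NRS -0.13, glycolysis aCXCR2 -0.15, hypoxia NRS -0.70, hypoxia aCXCR2 -0.51. With median of ratios factors they gave medians of neutrophil-like glycolysis 0.45 and hypoxia 0.25, photoreceptor-like glycolysis -0.40, counts of 0 glycolysis lower, 7 glycolysis higher, 0 hypoxia lower, 3 hypoxia higher, and sums of glycolysis NRS -0.11, glycolysis aCXCR2 -0.20, hypoxia NRS -0.68, hypoxia aCXCR2 -0.56. With S100a8 and S100a9 left out of the totals they gave medians of neutrophil-like glycolysis -0.060 and hypoxia -0.26, counts of 0 glycolysis lower, 2 glycolysis higher, 2 hypoxia lower, 1 hypoxia higher, and sums of glycolysis NRS -0.46, glycolysis aCXCR2 -0.070, hypoxia NRS -1.03, hypoxia aCXCR2 -0.43. With the unnamed Ctsk-led cluster 1 added to the neutrophil-like class they gave medians of neutrophil-like hypoxia -0.22, counts of 2 glycolysis higher, 1 hypoxia higher, and sums of glycolysis NRS -0.36, glycolysis aCXCR2 0.16, hypoxia NRS -0.86. Without cluster 5 they gave medians of neutrophil-like hypoxia -0.30, counts of 1 glycolysis lower, 1 hypoxia lower, and sums of glycolysis NRS -0.25, glycolysis aCXCR2 0.25, hypoxia NRS -0.60, hypoxia aCXCR2 -0.064. Without cluster 2 they gave medians of macrophage-scoring glycolysis 0.18, and sums of glycolysis aCXCR2 -0.013, hypoxia NRS -0.92, hypoxia aCXCR2 -0.15. With at least 1000 UMIs, 500 genes and at most 5% mitochondrial UMIs they gave medians of macrophage-scoring hypoxia -0.074, and sums of glycolysis NRS -0.19, glycolysis aCXCR2 0.18, hypoxia NRS -0.74. As the mean of per-cell CPM they gave medians of macrophage-scoring hypoxia -0.080, photoreceptor-like glycolysis -0.15, and sums of glycolysis NRS -0.21, glycolysis aCXCR2 0.24, hypoxia NRS -0.78, hypoxia aCXCR2 -0.12. With members of at least 50 CPM they gave medians of photoreceptor-like glycolysis -0.31. At 2-fold they gave counts of 0 glycolysis lower, 0 glycolysis higher, 2 hypoxia lower. At clustering resolution 0.5 they gave counts of 0 glycolysis higher, 2 hypoxia lower, and sums of glycolysis NRS -0.20, glycolysis aCXCR2 0.25, hypoxia NRS -0.75, hypoxia aCXCR2 -0.073. Without clusters 3 and 7 they gave counts of 0 glycolysis higher, and sums of glycolysis NRS -0.48, glycolysis aCXCR2 0.050, hypoxia NRS -1.26, hypoxia aCXCR2 -0.37. With the highest doublet scores removed they gave sums of glycolysis NRS -0.41. With the members left in the variable genes they gave sums of glycolysis NRS -0.42, glycolysis aCXCR2 0.17, hypoxia NRS -1.01. At resolution 2 they gave sums of glycolysis NRS -0.42, hypoxia NRS -1.0004. Both scalings and the left-out S100a8 and S100a9 act through the totals by construction. For the other settings the cause was not tested. Apart from total UMIs and TMM factors, the share of all genes beside a count is not given, so changes in counts are no result about the members. The settings that add or leave out named clusters or S100a8 and S100a9, and a marker score with 10 CPM added in place of 100, were chosen after seeing the data. With the latter 7 of the 13 named clusters lost their names. With the Marco-bearing cluster 15 added to the macrophage-scoring class, no listed value moved. The depth of 1 library per treatment limits all intervals to counting error, and Pfkm, Slc2a3 and Hk3 lay too low in photoreceptor-like cells to be compared between the libraries.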

Other observations

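Clusters that carried no class name also held the members. The crystallin-led cluster 18, with 55 NRS cells, had glycolysis and hypoxia sums of 16068 (15607 to 16539) and 3863 (3639 to 4098) CPM. Hilpda stood at 1121 CPM there and Gapdh at 3748, while its neutrophil markers summed to 14444. The Ctsk-bearing cluster 1, with 985 NRS and 92 aCXCR2 cells, had glycolysis sums of 12859.9 and 14996 and hypoxia sums of 2412 and 2150.3. Its Bnip3l was at 649 and 496, and its Hilpda at 645 and 316. In the haemoglobin-led cluster 10, Bnip3l, which red cell precursors use to clear mitochondria, was at 504 and 619 CPM, beside glycolysis sums of 13616 and 16903 and neutrophil markers of 24862 and 96713. Cluster 13, with Pde6b and Gnat1 among its leading genes, had Hilpda at 555 and 184, above the level of the photoreceptor-like class, and neutrophil markers of 28873 and 90615. The Marco-bearing cluster 15 had sums of 9832 and 1325 in its 141 NRS cells. The part of neutrophil RNA in these levels was not tested.

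Photoreceptor-like cells also carried genes of the further lists. Eno2, the neuronal enolase, was at 157 and 183 CPM in them (NRS and aCXCR2), Aldoc at 185 and 141, Bpgm, a bisphosphoglycerate mutase, at 146 and 108, and Epas1, which encodes HIF-2α, at 85.4 and 68.7. In neutrophil-like cells Eno2 was at 5.59 and 0.668 CPM and Epas1 at 2.97 and 0.891.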
